A study of Mus musculus with 30 samples.

Results

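The melanosome and pigment cell genes Mitf, Tyr, Tyrp1, Dct, Pmel, Slc45a2, Oca2, Gpnmb, Mlana and Tspan10 were followed by RNA-seq through the growth of mouse retinal organoids. They were taken by symbol from the deposited gene table, where each matched 1 identifier, which gives 10 of 45594 genes. All 10 passed the filter on low counts. The organoids came from 1 clone of wild-type Nrl-GFP induced pluripotent stem cells (iPSCs). The clone was made from fibroblasts of mouse embryos at day 14.5 with inducible lentiviral vectors for Oct3/4, Sox2, Klf4 and c-Myc, so every library shares 1 genetic origin. In the Nrl-GFP mouse, green fluorescent protein is driven by the promoter of the rod factor Nrl.

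Libraries were made at day 0 (D0) from the iPSCs, which were kept on feeder cells, at D4 from whole aggregates grown with Matrigel, and from neural retina dissected out of the organoids on 8 later days, which were D7 and D10, then D12 and D15, D18 and D22, and last D25 and D32. Each of the 10 days had 3 libraries labelled as biological replicates, drawn from pools of 36 organoids (D4), 30 (D7), 20 (D10) or 12 (all later days). Per the labels, organoids moved to a medium with N2 supplement at D7. From D10 the medium also held taurine, 9-cis retinal and insulin-like growth factor 1, and oxygen was 20% instead of 5%. From D26 serum, B27 supplement without vitamin A and amino acids were added.

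Melanin is made in melanosomes, which are organelles related to lysosomes. Mitf, a basic helix-loop-helix leucine zipper factor, switches on the genes of melanosomes in pigment cells, and in the early mouse optic vesicle it marks the cells that become retinal pigment epithelium. Tyr (tyrosinase) carries out the first steps of melanin synthesis, and Dct and Tyrp1 act after it. Pmel forms the fibrils on which melanin is laid down, Mlana takes part in the maturation of Pmel, and Gpnmb is a glycoprotein related to Pmel that macrophages also make. Oca2 and Slc45a2 are membrane proteins that keep the melanosome's pH suited to tyrosinase, and Tspan10 is a tetraspanin made in pigment cells.

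Depth lay between 16.77 and 24.53 M estimated counts (median 19.23 M, where M is counts divided by 1e6). Before scaling, 1 CPM (counts per 1e6 counts) thus stands for about 16.77 to 24.53 counts. After scaling, that number is multiplied by the scaling factor of the library, which was 0.524 at the lowest. Levels are CPM after TMM scaling, given as mean ± SD of the 3 libraries of a day. Changes are log2 ratios with their standard error (SE), and adjusted p-values come from edgeR's quasi-likelihood test with Benjamini-Hochberg adjustment over all 19897 tested genes; a gene was called higher or lower at an adjusted p below 0.05. At D4 the libraries stood apart from each other: replicate 2 had a scaling factor of 0.524, the lowest of all, and replicate 3 held a summed level of the 10 genes of 37.5 CPM, against 8.61 and 5.38 CPM in replicates 1 and 2. The libraries also fell into 2 sets by the share of Rpl3 counts that went to its pseudogenes, which was 11.95 to 31.83% in the 12 libraries of set 1 and 70.94 to 86.49% in the 18 of set 2. Set 1 holds D0 and D7 with replicate 2 of each day between D10 and D25, and set 2 holds D4, D32 and the remaining libraries. The labels do not say what separates the sets, and for D0, D4, D7 and D32 the set and the day cannot be told apart.

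The promoters of Tyr, Tyrp1 and Dct are shown because these 3 tyrosinase family genes are textbook targets of Mitf, and that of Tspan10 because it holds only the core of the same motif. The longest run of letters shared by the 3 tyrosinase family promoters was GTCATGTGCT, which lies in the M-box, an element bound by Mitf. This run was searched on both strands in all promoters, as was its core TCATGTG, which lies inside it, and the E-box CACGTG. Sequences are from RefSeq (GRCm38.p6), run 5′ to 3′ on the strand of the gene from 250 bases before to 50 bases after its start, and have motif matches in capitals. They cover chr7:87493463-87493762 (minus strand) for Tyr, chr4:80833963-80834262 (plus strand) for Tyrp1, chr14:118052197-118052496 (minus strand) for Dct and chr11:120442381-120442680 (plus strand) for Tspan10.
Tyr: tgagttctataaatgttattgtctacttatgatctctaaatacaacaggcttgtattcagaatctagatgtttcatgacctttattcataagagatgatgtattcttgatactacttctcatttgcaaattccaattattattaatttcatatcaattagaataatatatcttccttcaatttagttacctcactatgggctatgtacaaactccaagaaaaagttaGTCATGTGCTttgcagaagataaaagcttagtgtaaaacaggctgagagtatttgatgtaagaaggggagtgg
Tyrp1: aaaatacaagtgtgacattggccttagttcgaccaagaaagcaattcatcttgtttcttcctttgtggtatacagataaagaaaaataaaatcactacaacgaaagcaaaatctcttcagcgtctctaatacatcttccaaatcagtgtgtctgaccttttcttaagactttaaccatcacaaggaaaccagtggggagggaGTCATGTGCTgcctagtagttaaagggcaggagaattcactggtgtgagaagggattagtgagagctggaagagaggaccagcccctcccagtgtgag
Dct: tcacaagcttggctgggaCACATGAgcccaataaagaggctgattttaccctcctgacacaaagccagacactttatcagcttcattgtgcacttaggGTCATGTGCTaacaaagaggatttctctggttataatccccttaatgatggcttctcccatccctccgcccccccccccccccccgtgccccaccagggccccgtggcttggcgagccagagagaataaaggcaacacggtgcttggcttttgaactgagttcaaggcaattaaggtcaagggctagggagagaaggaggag
Tspan10: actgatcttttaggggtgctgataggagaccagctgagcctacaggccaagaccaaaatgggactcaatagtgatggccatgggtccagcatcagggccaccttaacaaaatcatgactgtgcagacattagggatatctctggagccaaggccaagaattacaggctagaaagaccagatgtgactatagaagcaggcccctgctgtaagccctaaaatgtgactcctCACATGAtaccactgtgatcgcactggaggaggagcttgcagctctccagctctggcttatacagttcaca

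The run of 10 letters stood once in each of the 3 tyrosinase family promoters, with its first base at position -23 from the start in Tyr, -48 in Tyrp1 and -152 in Dct. Since the run was found as common to these 3, its presence in them is no test. It was present in 61 of 32851 promoters of this length (0.186%), these 3 among them. A run of 10 letters is rare by its length, so this share is a description only. The core alone was found on the reverse strand at -21 in Tspan10 and at -232 in Dct, and is held by 3.77% of promoters. CACGTG, held by 7.15% of promoters, was in no promoter of these genes. The table had 9 promoters for 7 of the 10 genes; Mitf has 3 of them, and those of Mitf, Gpnmb and Oca2 held no match to any of these motifs. Pmel, Slc45a2 and Mlana had no entry. These matches describe letters and were not tested for binding.

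Each of the 10 genes had its highest mean between D7 and D12 and a lower one from D15 on, but they did not peak on the same day. By day mean, 2 of them (Mitf and Slc45a2) were highest at D7, 7 (Tyr, Tyrp1, Dct, Pmel, Oca2, Gpnmb and Tspan10) at D10 and 1 (Mlana) at D12. Mlana, whose highest day mean was 2.14 CPM, was at 0.143 CPM at D7 and 1.22 CPM at D0. Tyr and Gpnmb were at 8.07 and 25 CPM at D15, above their 5.5 and 13.9 CPM at D7. A peak at D7 therefore describes Mitf and Slc45a2, while the means of the other 8 were higher at D10 or D12. At D7 Dct stood at 92.1%, Pmel at 77.2% and Tspan10 at 75.4% of the highest day mean, but Tyrp1 at 36.5%, Oca2 at 24.3%, Tyr at 8.73%, Gpnmb at 7.93% and Mlana at 6.65%. All 10 differed between days in the test over all days, as did 91.4% of all tested genes, so that count says little about these genes. In RNA from whole pieces of tissue, fewer pigment cells and less RNA per pigment cell cannot be told apart.

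**Figure D1:**
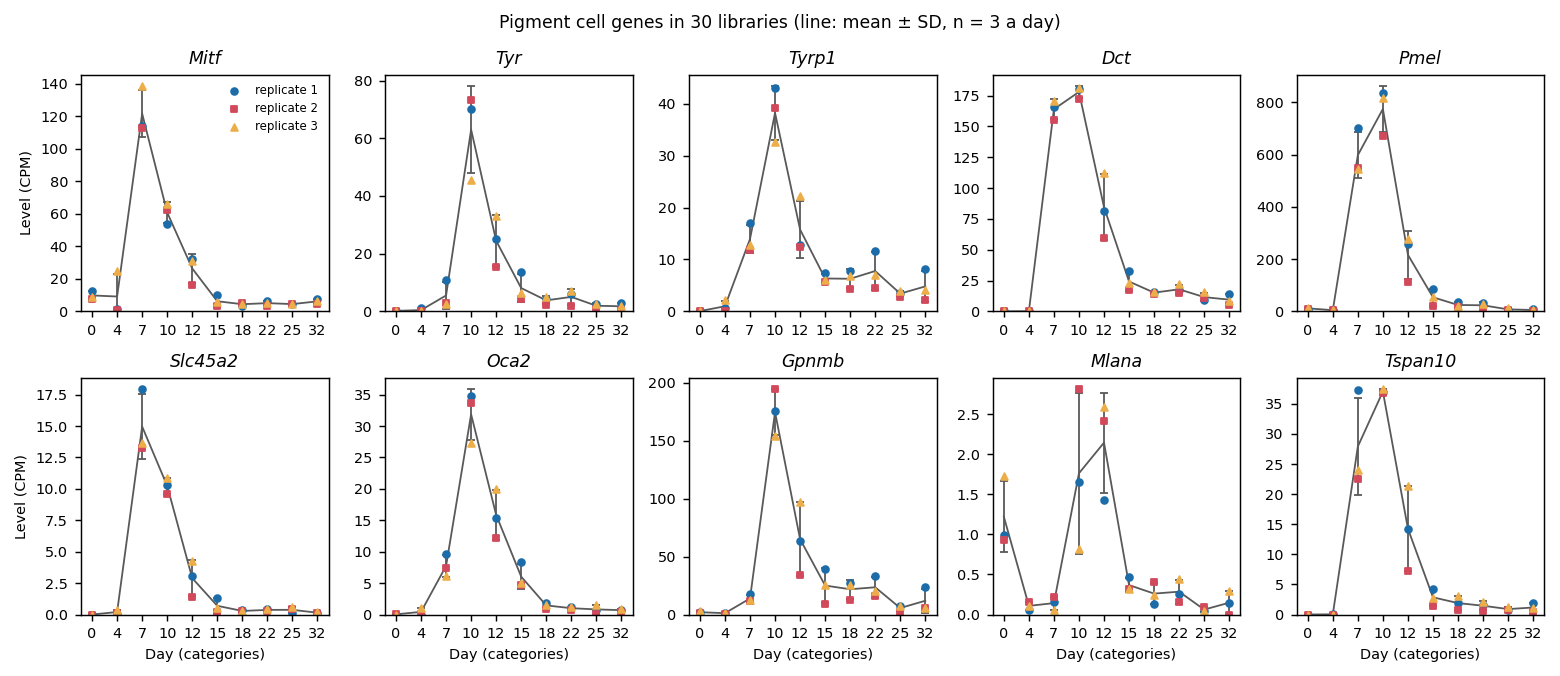
Level (CPM, from 0) of each gene in all 30 libraries by day, as points with 1 symbol per replicate number, with a line for the day mean and bars for the SD (n = 3). Pmel reaches 774 CPM at D10 and Mlana no more than 2.14 CPM as a day mean, and every panel is low again by D18.

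**Figure D2:**
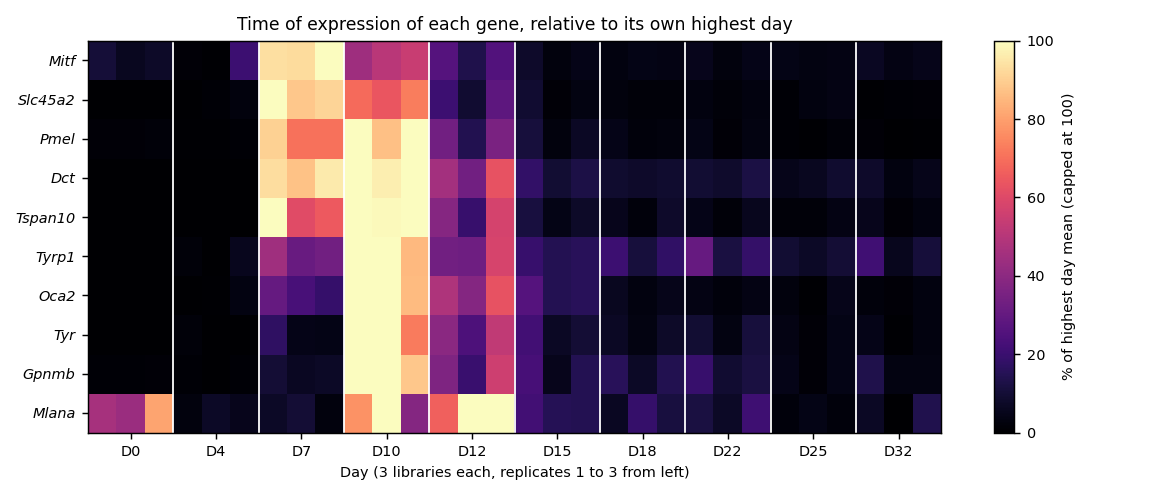
Level of each gene in each library as a percentage of the gene's highest day mean, with genes down the page from those highest at D7 to those highest later, and libraries by day from left to right. The bright block begins at D7 for Mitf, Slc45a2, Pmel, Dct and Tspan10 and at D10 for Tyr and Gpnmb, which stood at 8.73 and 7.93% at D7.

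Whole aggregates at D4 were compared with iPSCs at D0 to see which of the genes were already present. Most were near the limit of detection on both days. Pmel was at 4.58 ± 1.88 CPM at D4 and 11.5 ± 1.61 at D0, and did not pass the test (log2 -1.31, SE 0.57, adjusted p = 0.058). It sat at the threshold, being called lower with DESeq2 (adjusted p = 0.046), when only the 6 libraries were fitted (adjusted p = 0.018) and without D4 replicate 3 (log2 -1.70, adjusted p = 0.042), over a range of adjusted p from 0.0005 to 0.17 in all alternatives. Mlana fell to 0.108 ± 0.0498 CPM at D4, against 1.22 ± 0.446 at D0 (log2 -3.47, SE 0.68, adjusted p = 0.00014). The iPSCs were kept on feeder cells, and 8 feeder or fibroblast markers summed to 44.9 to 92.4 CPM at D4 and 497 to 1323 CPM at D0, with 6 of them called lower (median log2 -2.89). The part of feeder cells in the levels of Mlana and Pmel at D0 was not tested. Tyrp1, Slc45a2 and Oca2 were called higher at D4. Thus 3 of the 10 genes were called higher and 1 lower, where 27.0% of all tested genes were called higher and 24.8% lower. The calls rest on few counts: Tyrp1 had 52 counts over the 3 libraries at D4 and 3 at D0 (ratio 19.6, exact Poisson 95% interval 6.34 to 98.1), Oca2 had 22 and 2 (12.4, 3.06 to 109), and Slc45a2 had 10 at D4 and 0 at D0, which makes it at least 3.77-fold higher, taking 3 counts over the 3 libraries as the floor. These intervals cover counting error only. The step is also a full change of library set, from which the day cannot be told apart here. With the set as a term, estimated from D10 to D25, Pmel (log2 -2.38, adjusted p = 0.0005) and Gpnmb (log2 -1.65, adjusted p = 0.044) were called lower at D4 and Oca2 lost its call (adjusted p = 0.064). From D10 to D25 the only library of set 1 is replicate 2, so this term cannot tell the set from the replicate number. Carried over to D0 and D4, it decides nothing about these genes.

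Mitf at D4 was decided by 1 library. It stood at 1.64, 0.78 and 25 CPM in the 3 libraries of D4 and at 12.7, 7.57 and 9.13 CPM in those of D0 (log2 -0.08, SE 0.62, adjusted p = 0.94). Without D4 replicate 3, Mitf was called lower at D4 (log2 -2.94, adjusted p = 5.5e-06), while Oca2 (log2 0.78, adjusted p = 0.72) and Slc45a2 (log2 4.06, adjusted p = 0.054) were no longer called. With replicate 1 as the only library of D4, which was then assumed to vary like the libraries of other days, Mitf had a log2 change of -2.56 (adjusted p = 0.00069). Replicate 3 also held more Trpm1, at 13.4 CPM against 1.47 and 0.156 CPM in the other libraries of D4.

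The first dissected neural retina at D7 was compared with whole aggregates at D4, and here most of the pigment genes rose sharply. Mitf was at 114, 113 and 139 CPM in the 3 libraries of D7, against 1.64, 0.78 and 25 CPM at D4. It rose by 3.71 on the log2 scale (SE 0.65, adjusted p = 7.2e-05), with no overlap between the days, and by 6.60 (adjusted p = 5.9e-11) without D4 replicate 3. Pmel stood at 701, 547 and 545 CPM at D7, against 3.4, 3.59 and 6.74 CPM at D4 (log2 7.01, SE 0.67, adjusted p = 1.8e-08). Dct was at 166, 155 and 171 CPM at D7, where 5 counts had been found at D4 in all 3 libraries together (log2 10.55, SE 0.51, adjusted p = 5.1e-13). Pmel and Dct were high in every library of D7 and low in every library of D4. Mitf was high in every library of D7, but at D4 it was low only in replicates 1 and 2.

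Tspan10 was at 37.3, 22.5 and 24 CPM at D7 and had 2 counts at D4, a ratio of 680 (exact Poisson 95% interval 188 to 5623, adjusted p = 2.4e-08). Slc45a2 reached 18, 13.3 and 13.7 CPM at D7, against 0.0566, 0.156 and 0.39 CPM at D4 (log2 6.15, SE 0.59, adjusted p = 4.7e-08). Oca2 (7.73 ± 1.81 CPM at D7 and 0.424 ± 0.604 at D4, log2 4.11), Tyrp1 (13.9 ± 2.76 and 0.977 ± 1.04, log2 3.75) and Gpnmb (13.9 ± 3.21 and 1.18 ± 0.7, log2 3.49) rose as well. Tyr, the enzyme that starts melanin synthesis, was at 10.9, 2.91 and 2.68 CPM at D7, against 1.13, 0.078 and 0.111 CPM at D4 (log2 3.55, SE 0.78, adjusted p = 0.00074). Replicate 1 of D7 was high and the other 2 low, and with replicate 1 as the only library of D4, under the same assumption of a shared spread, the log2 change was 2.27 (adjusted p = 0.081). Mlana, at 0.143 ± 0.08 CPM at D7 and 0.108 ± 0.0498 at D4, was not called (adjusted p = 0.71).

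Of the 10 genes, 9 were called higher and 0 lower at D7 against D4, where 20.0% of all tested genes were higher and 22.8% lower. The median change was 3.93 over the 10 genes and -0.01 over all tested genes. Between D4 and D7 the material also passed from whole aggregates to dissected retina, the medium changed and the libraries moved from set 2 to set 1, and these cannot be told apart from the day.

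Between D7 and D10 the pigment genes parted. Tyr, Tyrp1, Oca2, Gpnmb and Mlana rose, while Dct, Pmel and Tspan10 held levels that did not pass the test and Mitf and Slc45a2 had lower means. Tyr was at 70, 73.4 and 45.6 CPM at D10, against 10.9, 2.91 and 2.68 CPM at D7 (log2 3.51, SE 0.63, adjusted p = 0.00011). Gpnmb reached 175, 194 and 154 CPM at D10, against 17.5, 11.4 and 12.6 CPM at D7 (log2 3.65, SE 0.56, adjusted p = 1.6e-05). Both were high in every library of D10 and low in every library of D7.

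Oca2 stood at 34.7, 33.6 and 27.3 CPM at D10, against 9.68, 7.43 and 6.09 CPM at D7 (log2 2.04, SE 0.51, adjusted p = 0.0028). Tyrp1 was at 42.9, 39.1 and 32.6 CPM at D10, against 17.1, 11.9 and 12.8 CPM at D7 (log2 1.45, SE 0.45, adjusted p = 0.012), and lost its call without D7 replicate 2 (adjusted p = 0.055). Mlana rose to 1.65, 2.81 and 0.82 CPM at D10, against 0.155, 0.215 and 0.057 CPM at D7 (log2 3.56, SE 0.62, adjusted p = 7.1e-05). The libraries of the 2 days did not overlap for any of these 5 genes. The share of all tested genes without overlap was not computed, so this only describes them.

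Mitf had a lower mean at D10. It was at 54, 62.2 and 66.3 CPM at D10, against 114, 113 and 139 CPM at D7, with no overlap, but did not pass in the fit of all days (log2 -1.0, SE 0.58, adjusted p = 0.19). It passed when only the 6 libraries of the 2 days were fitted (log2 -1.0, adjusted p = 0.00016). Within set 1, where D10 has replicate 2 alone, the log2 change was -0.99 (adjusted p = 0.03, with that library assumed to vary like the other days). Slc45a2 was at 10.24 ± 0.659 CPM at D10 and 15 ± 2.6 at D7 (log2 -0.55, SE 0.42, adjusted p = 0.33), without overlap, and passed with only the 6 libraries (adjusted p = 0.018). Dct was at 178 ± 4.96 CPM at D10 and 164 ± 7.94 at D7 (log2 0.12, SE 0.27, adjusted p = 0.77), Pmel at 774 ± 88.7 and 598 ± 89.4 (log2 0.37, SE 0.5, adjusted p = 0.59, and 0.037 with only the 6 libraries), and Tspan10 at 37 ± 0.371 and 27.9 ± 8.12 (log2 0.41, SE 0.46, adjusted p = 0.52). These misses do not show that the levels were equal.

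In all, 5 of the 10 genes were called higher and 0 lower at D10 against D7, where 20.0% of all tested genes were higher and 17.8% lower. The median change was 0.93 over the 10 genes and 0.03 over all tested genes.

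**Figure D3:**
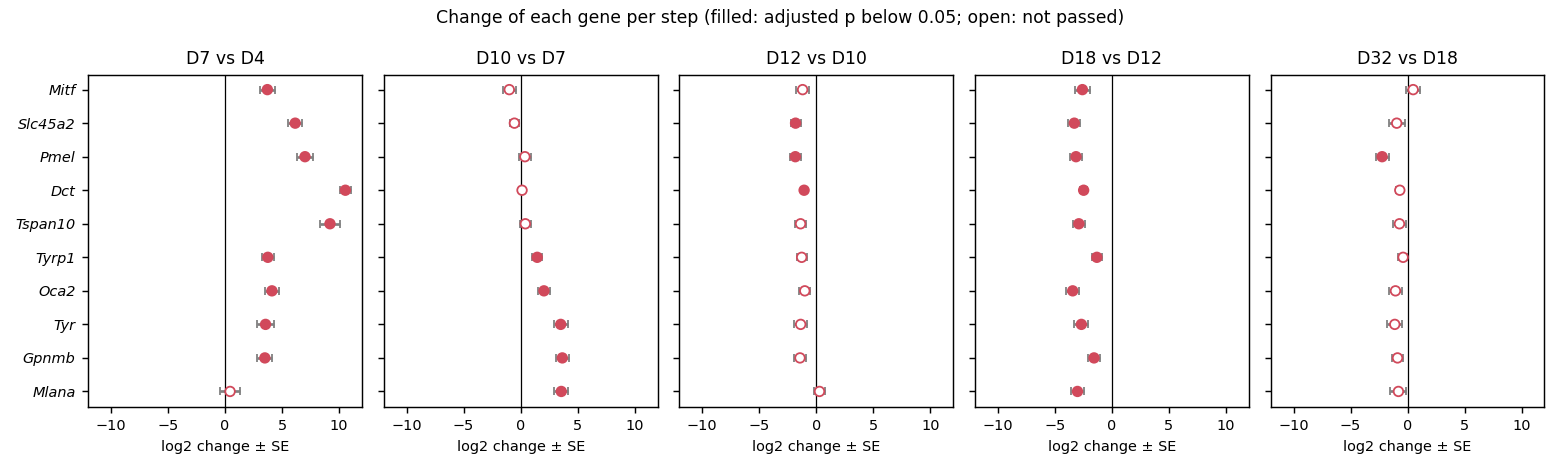
log2 change of each gene ± SE over 5 steps, with the later day over the earlier one and points filled where the adjusted p was below 0.05. From D4 to D7 only Mlana is open, from D7 to D10 the changes spread from -1.0 for Mitf to 3.65 for Gpnmb, and from D12 to D18 all 10 are filled and below 0.

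After D7, the first genes called lower in the fit of all days were Pmel, Slc45a2 and Dct, at D12 against D10. Pmel was at 259, 111 and 278 CPM at D12, against 836, 673 and 815 CPM at D10 (log2 -1.84, SE 0.51, adjusted p = 0.043). Slc45a2 fell to 3.08, 1.38 and 4.22 CPM at D12, against 10.31, 9.55 and 10.9 CPM at D10 (log2 -1.82, SE 0.44, adjusted p = 0.025). Dct fell to 81.2, 59.6 and 113 CPM at D12, against 180, 172 and 181 CPM at D10 (log2 -1.07, SE 0.28, adjusted p = 0.033). The D12 libraries lay below those of D10 for all of these, with replicate 2 the lowest. The same held for genes that were not called, such as Mitf and Oca2. This only describes them, since the share of all tested genes without overlap was not computed.

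Thus 3 of the 10 genes were called lower at D12 and 0 higher, where 1.89% of all tested genes were lower and 2.52% higher. Same-numbered libraries of these days deviated alike, but replicate 2 is also the only library of set 1 on both, so pairing and set cannot be told apart. With the replicate number as a block 6 were called lower, the added ones being Tyr (log2 -1.52, adjusted p = 0.042), Gpnmb (log2 -1.60, adjusted p = 0.018) and Tspan10 (log2 -1.55, adjusted p = 0.018). Mitf was at 26.4 ± 8.8 CPM at D12 and 60.9 ± 6.25 at D10 (log2 -1.20, SE 0.59, adjusted p = 0.24), Oca2 at 15.9 ± 3.97 and 31.9 ± 4.02 (log2 -1.01, adjusted p = 0.24), and Tyrp1 at 15.8 ± 5.53 and 38.2 ± 5.23 (log2 -1.28, adjusted p = 0.091). Mlana alone had a higher mean at D12, at 2.14 ± 0.625 CPM against 1.76 ± 1 at D10 (log2 0.28, adjusted p = 0.79). The median change was -1.32 over the 10 genes and 0 over all tested genes.

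These calls sat near the threshold. Leaving out each library in turn left 0 to 2 genes called lower, Pmel lost its call with every one of the 6 left out (adjusted p between 0.067 and 0.14), and only the libraries of set 2, with 2 libraries a day, gave 0. Other alternatives went the other way, and a fit of only the 6 libraries of the 2 days called more of the genes lower than the fit of all days. The samples of D12 also follow the change of medium and of oxygen set for D10 in the labels, which cannot be told apart from the day.

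By D18 all 10 genes had fallen. Pmel was at 35.6, 17.8 and 19.8 CPM at D18, against 259, 111 and 278 CPM at D12 (log2 -3.15, SE 0.55, adjusted p = 0.00012). Dct was at 15.4, 14.2 and 15.9 CPM at D18, against 81.2, 59.6 and 113 CPM at D12 (log2 -2.48, SE 0.29, adjusted p = 1.3e-06). Mitf was at 3.56, 4.96 and 4.67 CPM at D18, against 32, 16.3 and 31 CPM at D12 (log2 -2.59, SE 0.64, adjusted p = 0.0042). The D18 libraries lay below those of D12 for all 3 genes.

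The fitted falls were largest for the pH regulators. Oca2 was at 1.45 ± 0.469 CPM at D18 and 15.9 ± 3.97 at D12 (log2 -3.44, SE 0.56, adjusted p = 6.5e-05), and Slc45a2 at 0.286 ± 0.0654 and 2.9 ± 1.43 (log2 -3.30, SE 0.54, adjusted p = 8.1e-05). Mlana (log2 -3.02), Tspan10 (log2 -2.90) and Tyr (log2 -2.68) lay between. They were smallest for Tyrp1 and Gpnmb, with Tyrp1 at 6.27 ± 1.82 CPM at D18 and 15.8 ± 5.53 at D12 (log2 -1.32, SE 0.46, adjusted p = 0.036) and Gpnmb at 21.8 ± 7.97 and 65 ± 31.7 (log2 -1.57, SE 0.52, adjusted p = 0.028). The sizes were not tested against each other. The libraries of the 2 days did not overlap for any of the 10 genes, which only describes them, since the share over all tested genes was not computed. All 10 genes were called lower and 0 higher, where 10.7% of all tested genes were lower and 12.6% higher, and the median change was -2.79 against 0 over all tested genes.

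Within set 2 alone, with 2 libraries a day, 7 were called lower, and without scaling factors 8. Tyrp1 and Gpnmb were those that lost their call when single libraries were left out, Tyrp1 to an adjusted p of 0.18 and Gpnmb to 0.16 without D12 replicate 3. The day between, D15, already held low levels of Pmel (86.7, 20.5 and 54.4 CPM), Dct (32.4, 17.3 and 22.8 CPM) and Mitf (9.87, 3.32 and 5.49 CPM), each with replicate 2 lowest.

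After D18 little was left to lose. From D18 over D22 and D25 to D32, Dct was at 15.17 ± 0.899, 17.9 ± 3.58, 11.6 ± 3.41 and 9.47 ± 4.46 CPM, and Mitf at 4.4 ± 0.735, 5.06 ± 1.62, 4.47 ± 0.271 and 6.16 ± 1.67 CPM. Pmel fell again, to 9.79, 1.14 and 4.74 CPM at D32, against 35.6, 17.8 and 19.8 CPM at D18 (log2 -2.23, SE 0.56, adjusted p = 0.002). It was the only 1 of the 10 genes called lower, with 0 called higher, where 23.7% of all tested genes were lower and 20.6% higher. Gpnmb was at 23.9, 6.07 and 5.72 CPM at D32, against 27.5, 12.7 and 25.19 CPM at D18 (log2 -0.88, SE 0.52, adjusted p = 0.18), and without D32 replicate 1 it was called lower (log2 -1.89, adjusted p = 0.0075), as was Dct (log2 -1.10, adjusted p = 0.0056). D32 replicate 1 had the highest level of the 3 for Mitf, Tyr, Tyrp1, Dct, Pmel, Gpnmb and Tspan10.

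Set against D7, the retina at D32 had kept only traces of most of these transcripts. Pmel was at 5.22 ± 4.35 CPM at D32 and 598 ± 89.4 at D7 (log2 -6.84, SE 0.66, adjusted p = 1.2e-09), and Slc45a2 at 0.146 ± 0.0501 and 15 ± 2.6 (log2 -6.62, SE 0.6, adjusted p = 1.1e-09). Tspan10 (log2 -4.57), Mitf (log2 -4.30), Dct (log2 -4.11), Oca2 (log2 -3.46), Tyr (log2 -1.65, adjusted p = 0.028) and Tyrp1 (log2 -1.54, adjusted p = 0.0051) were also lower. Gpnmb was at 11.9 ± 10.4 CPM at D32 and 13.9 ± 3.21 at D7 (log2 -0.22, SE 0.52, adjusted p = 0.73), and Mlana at 0.147 ± 0.148 and 0.143 ± 0.08 (log2 0.02, adjusted p = 0.98). Of the 10 genes, 8 were called lower and 0 higher, where 31.5% of all tested genes were lower and 34.0% higher. The Tyr call rests on D7 replicate 1, without which it was lost (log2 -0.67, adjusted p = 0.4), as it was without D32 replicate 2 (adjusted p = 0.13) or 3 (adjusted p = 0.055).

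Levels of different genes can be compared only per transcript length, for which TPM values (transcripts per 1e6 transcripts) were computed from the transcript table. At D7 Pmel led with 512 TPM (458 to 612 over the 3 libraries), before Dct with 132 (122 to 137), Mitf with 69.7 (63.5 to 79.4) and Tspan10 with 31.7 (25.12 to 43.4), and none of these ranges overlapped. Tyrp1 at 12 TPM, Slc45a2 at 9.14, Gpnmb at 7.99, Oca2 at 5.14 and Tyr at 2.55 TPM followed, each with a range that overlapped the next, and Mlana was last with 0.412 TPM. At D10 the order was Pmel (762 TPM), Dct (165), Gpnmb (113), Tspan10 (48.3), Mitf (40.1), Tyrp1 (37.8), Tyr (33.5), Oca2 (23.8), Slc45a2 (7.2) and Mlana (5.82), with overlapping ranges among Mitf, Tyrp1 and Tyr and between the last 2. Gpnmb thus had rank 7 at D7 and rank 3 at D10. At D32 the first was Dct at 9.72 TPM (5.87 to 14.6), with Gpnmb at 8.69 (4.09 to 17.4) and Pmel at 5.65 (1.28 to 10.7) in overlapping ranges.

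The replicates of a day did not vary freely, since 1 library was often low for most of the genes. Replicate 2 was the lowest of its day for 9 of the 10 genes at D12, 9 at D15, 7 at D18, 10 at D22, 7 at D25 and 8 at D32, and for 4 at D10 and 6 at D7, where all libraries belong to set 1. At D15 Gpnmb was at 9.52 CPM in replicate 2, against 39.7 and 25.9 CPM in replicates 1 and 3. From D10 to D25 replicate 2 is also the only library of set 1. With the set as a term beside the day, Pmel was lower in set 1 (log2 -1.08, SE 0.26, adjusted p = 0.017), as was Tspan10 (log2 -0.97, SE 0.27, adjusted p = 0.049), where 598 of the tested genes (3%) were called for that term. Gpnmb (log2 -0.95, adjusted p = 0.063) and the remaining genes did not pass. At D32 replicate 2 was low although all 3 libraries belong to set 2.

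**Figure D4:**
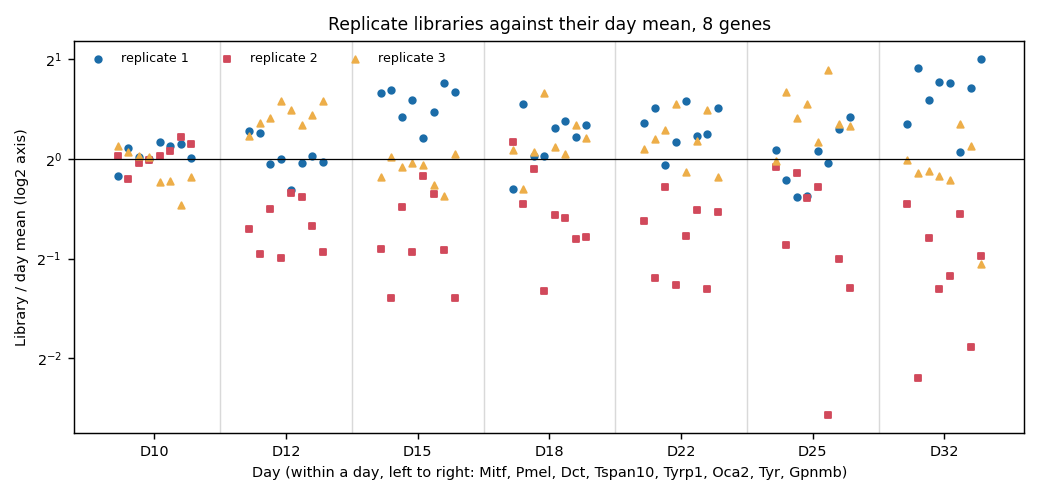
Level of each library divided by its day mean (log2 axis, 1 = day mean) from D10 to D32 for 8 of the genes, with 1 symbol per replicate number; Mlana and Slc45a2 are left out for their low counts. Replicate 2 lies below the line for most genes from D12 on, where it was lowest for 7 to 10 of the 10 genes.

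Mitf (chromosome 6, 97807052 to 98021349, plus strand, GRCm38) has several first exons, of which the upstream ones are known from pigment epithelium and the most downstream one, that of the M form, from melanocytes. Transcripts from the most upstream start took 77.8 ± 4.63% of Mitf counts at D7, 76.9 ± 2.58% at D10 and 81.8 ± 13.7% at D32. Those from the most downstream start (97991792) took 16.6 ± 3.34%, 14.9 ± 0.528% and 16 ± 12.5%. Over all 10 days the mean upstream share lay between 76.5 and 84.6%, but these shares do not measure the use of starts directly. The main upstream transcript, Mitf-001, is the only one annotated to 98021349, while the next ends at 98018707, and 2642 of its 2869 private 31-base words lie in that added 3′ end, so reads there are credited to it whatever their start. A transcript from the third start (97940918) had no count at D0 and took 5.66 ± 2.04% at D7, 7.81 ± 2.15% at D10 and 7.42 ± 2.23% at D12.

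Dct, Pmel, Slc45a2 (chromosome 15, 11000721 to 11029233) and Mlana (chromosome 19, 29697921 to 29708448) had 1 transcript each in the transcript table, while Oca2 (chromosome 7, 56239760 to 56536518) had 6 and Gpnmb (chromosome 6, 49036546 to 49070929) 5. Tyr-001, a protein-coding transcript, took 70.1 ± 1.97% of Tyr counts at D10, and Gpnmb-001 took 78.6 ± 1.53% of Gpnmb counts. Pmel (chromosome 10, 128706258 to 128720238, plus strand) overlaps at its end the oppositely transcribed Dgka, whose day mean was at most 37.5 CPM. Dct overlaps the antisense gene 4930435M08Rik, for which no value is given here, and Oca2 the antisense Gm44506 (at most 0.0171 CPM). How strand was used in counting is not given in the sources used here, so reads of these pairs may not be told apart.

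Around these genes, other genes for the making, moving and ion balance of melanosomes had smaller median changes. Of 34 such genes 12 were called higher and 6 lower at D7 against D4 (where 20.0 and 22.8% of all tested genes were, median log2 0.19 for the list and -0.01 over all). At D10 against D7 they were 9 and 5 (where 20.0 and 17.8% of all genes were), shares near the background. At D12 against D10 they were 0 and 5 (2.52 and 1.89% of all), and at D18 against D12 3 and 7 (12.6 and 10.7% of all, median -0.12 for the list and 0 over all). Trpm1, a cation channel of melanocytes and of ON bipolar cells, stood at 870 ± 79.8 CPM at D7 and 5.02 ± 7.32 at D4 (log2 7.39, SE 0.73, adjusted p = 3.7e-08). It fell to 29.2 ± 3.07 CPM at D18, against 308 ± 97.6 at D12 (log2 -3.40, SE 0.6, adjusted p = 0.00015). Rab38, a small GTPase that sends tyrosinase and Tyrp1 to melanosomes, rose to 38.6 ± 5.94 CPM at D7, against 5.13 ± 1.08 at D4 (log2 2.92), and fell to 5.32 ± 1.52 at D18, against 32.6 ± 14.7 at D12 (log2 -2.61). Bace2, the protease that cuts Pmel in pigment cells, was at 8.38 ± 2.58 CPM at D7 and had no count at D4.

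Other genes of this list rose between D7 and D10. The melanosomal exchanger Slc24a5 rose to 24.4 ± 1.96 CPM at D10, against 6.06 ± 1.17 at D7 (log2 2.01, SE 0.2, adjusted p = 5.5e-08), the cation channel Tpcn2 to 16.1 ± 1.59, against 5.82 ± 0.755 (log2 1.47), and Rab27a, which ties melanosomes to actin motors, to 45.6 ± 3.21 (log2 1.33). Rab27a then fell to 16.3 ± 3.69 CPM at D12, against 45.6 ± 3.21 at D10 (log2 -1.48, SE 0.25, adjusted p = 0.0024). Myo5a, a motor used by many cell types, was at 175 ± 18.7 CPM at D7 and 165 ± 30.9 at D4 and was not called (adjusted p = 0.63). Others were higher at D32 than at D7: Slc24a4 was at 37.7 ± 6.88 CPM at D32 and 0.218 ± 0.194 at D7 (log2 7.40), Mreg at 39.2 ± 1.26 and 10.6 ± 1.26 (log2 1.89), and Lyst at 109 ± 7.32 and 34.5 ± 1.47 (log2 1.66). Over the 34 genes, 9 were called higher and 15 lower at D32 against D7 (where 34.0 and 31.5% of all tested genes were).

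Relatives of Mitf and optic vesicle factors, some of which act on it, were 22 genes in all. At D7 against D4, 12 were called higher and 2 lower (where 20.0 and 22.8% of all tested genes were, median log2 1.44 for the list), and at D10 against D7 8 and 2 (20.0 and 17.8% of all, median 0.74). Few were called next, with 0 and 2 at D12 against D10 (2.52 and 1.89% of all) and 2 and 4 at D18 against D12 (12.6 and 10.7% of all). At D32 against D18, 1 was higher and 14 lower (20.6 and 23.7% of all, median -1.01). Tfec, a relative of Mitf made in pigment epithelium, was at 8.82 ± 2.99 CPM at D7 and 0.224 ± 0.147 at D4 (log2 5.34, SE 0.63, adjusted p = 4.4e-07). It was still at 6.31 ± 0.511 CPM at D12 and fell to 0.625 ± 0.514 at D18 (log2 -3.34, adjusted p = 4.7e-05). Otx2, which works with Mitf in pigment epithelium and later in photoreceptors, was at 119 ± 10.06 CPM at D12 and 208 ± 11.3 at D10 (log2 -0.81, adjusted p = 0.0069), and rose to 458 ± 60.1 at D18 (log2 1.95, adjusted p = 3.3e-09). Otx1 fell to 9.78 ± 2.8 CPM at D18, against 57.6 ± 23.6 at D12 (log2 -2.56). Pax6, a regulator of eye development, was not called over any step after D7. It was at 726 ± 61.5 CPM at D10 and 406 ± 42.5 at D7 (adjusted p = 0.19), and at 615 ± 34 at D18 and 347 ± 5.62 at D32. The fit takes 1 spread per gene over all days, and the D4 libraries of Pax6 varied widely (148 ± 197 CPM). These misses therefore do not show that Pax6 stayed level.

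Markers of the cells that could carry these transcripts were read beside them. Of 14 markers of maturing pigment epithelium 7 had a mean of at least 1 CPM at D7 and 9 at D10, and their summed level was 175 to 182 CPM at D7 and 227 to 250 CPM at D10, then 159 to 656 CPM at D12, 75.3 to 204 CPM at D18 and 195 to 635 CPM at D32. Stra6, a receptor for the retinol carrier protein, was the highest at D7 and D10, at 88.7 CPM at D7, 145 at D10, 87.4 at D12, 23.8 at D18 and 3.77 at D32. Rlbp1, a retinaldehyde binding protein that Müller glia also make, was at 50 CPM at D7, 37.7 at D10, 11.1 at D12 and 164 at D32. Rpe65, the isomerase that defines mature pigment epithelium, was at or near 0 on every day (at most 0.0635 CPM), Best1 at most 1.42 and Rgr at most 1.74 CPM. Ttr was high in some late libraries, with 189 ± 288 CPM at D12 and 237 ± 207 at D32. At D7 Rpe65 had no count in any of the 3 libraries.

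Of 7 markers of melanoblasts and melanocytes 5 had a mean of at least 1 CPM at D7, with a summed level of 72.4 to 109 CPM, and 4 did at D10, with 41.9 to 59 CPM. The defining factor Sox10 was at 1.99 CPM at D7 and 0.552 at D10, and the melanocortin receptor Mc1r at 0.325 and 0.921 CPM. Kit was the highest, at 38.4 CPM at D7 and 40.6 at D10, and was at 103.7 CPM in the iPSCs at D0. Pax3 was at 26.7 CPM at D7 and 3.7 at D10, and Ednrb at 14.7 and 2.99 CPM. Erbb3 was at 3.67 and 2.37 CPM and Foxd3 at 0.49 and 0.0495 CPM. Markers of microglia and macrophages, which make Gpnmb, summed to 6.3 to 6.57 CPM at D7 and 7.33 to 8.87 CPM at D10. Cd68 was the highest of them, at 4.58 and 3.66 CPM, with Tyrobp at 0 on both days and C1qb at 0.0559 and 0.0486 CPM. Csf1r, a receptor of these cells, was at 2.59 ± 0.855 CPM at D10 and 0.629 ± 0.146 at D7 (log2 2.03, adjusted p = 0.0037). Over this step, in which Gpnmb rose, 2 of the 6 tested markers were called higher and 0 lower. Of all tested genes 20.0% were called higher and 17.8% lower. Neural retina progenitor markers summed to 715 to 868 CPM at D7 and 1884 to 2074 CPM at D10, and those of ciliary margin and roof plate to 229 to 338 CPM at D7 and 45.6 to 88.7 CPM at D10. The part of any of these cells in the level of the pigment genes was not tested.

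The pattern most like that of Tyr, Tyrp1 and Dct was sought among 13080 named genes by Pearson's r over the 30 libraries with the mean standardised log2 level of these 3. As a description, with libraries of a day sharing their day, the closest were Col25a1 (r = 0.955), Bace2 (0.953), Wif1 (0.938), Stra6 (0.932), Slc16a12 (0.926), Ankrd44 (0.923), Wfdc1 (0.92), Filip1 (0.917), Tmem132b (0.917) and Foxp2 (0.916). Of the pigment genes outside the 3, Gpnmb had an r of 0.934, Tspan10 0.926, Oca2 0.914, Pmel 0.83, Slc45a2 0.776, Mitf 0.615 and Mlana 0.354. Col25a1, a membrane collagen, was at 13.9 CPM at D7, 31.3 at D10, 11 at D12 and 7.97 at D18. Wif1, a secreted Wnt inhibitor, and Wfdc1 had their highest day means at D12, with 22.25 and 143 CPM, against 20.5 and 114 CPM at D10. No test of this difference is given, so a later peak than that of the enzymes is not shown.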

How the data were processed

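Stranded libraries of poly(A) RNA from 10 days, with 3 replicates each, were read from 3 deposited tables. The tools were Trimmomatic 0.36, kallisto 0.42.4 and edgeR (no version given), with the build GRCm38.p4, per the submitters' processing notes. The deposited gene and transcript tables hold an estimated count per gene and per transcript, and the deposited normalised table holds a CPM signal per gene, made by the authors. How transcripts were joined into genes, and whether counting used strand, is not given in the sources used here. Some columns (9 over these tables) matched no listed sample and were not used.

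Gene estimates were rounded and fitted in R 4.3.3 with edgeR 4.0.16: filterByExpr by day (minimum count 10, minimum total 15) kept 19897 genes, TMM factors lay between 0.524 and 1.162, and all 30 libraries entered 1 model, with day as the factor. Quasi-likelihood tests were adjusted by Benjamini-Hochberg over all tested genes. TPM were computed from the transcript counts and lengths. Alternatives were RLE factors, no factors, 2 other filters, DESeq2 1.42.0, limma 3.58.1 on the log2 of the deposited CPM with 1 or 0.1 added, gene counts summed from the transcript table, the library set as a term, the replicate number as a block, a fit of only the 6 libraries compared, and each library left out. Fits within 1 library set, or with replicate 1 as the only library of D4, were added after seeing the data. The fit was tested on simulated data.

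The labels state no pairing of replicate numbers across days. Deviations of same-numbered libraries from their day means correlated above 0.1 in every pair for D12 and D10 (r from 0.15 to 0.41). The same held for D18 and D12 (0.11 to 0.24), and for no other comparison. On D10, D12 and D18 replicate 2 is also the only library of set 1, so pairing cannot be told apart from the library set. Pairing is therefore not shown, and the replicate block is given only as an alternative. Replicate libraries come from 1 cell clone, so p-values measure the spread between pools of organoids of that clone.

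The 10 genes, the other lists and the tests were chosen with earlier results of these data known. All 10 genes are named in every comparison; from each list, genes with a day mean of at least 10 CPM that were called are named, at most 6 by size, with the highest that was not called, and the 10 named genes with the highest r. Marker levels named one by one were chosen for being defining markers or for their level, save that all 7 of melanoblasts and melanocytes are given. A gene that this rule would name is not reported here.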

Additional observations from a re-analysis of the deposited data

How the results depend on the processing

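All 10 genes were called over all days under every alternative except DESeq2, which called 9, and 9 were called higher at D7 against D4 with each library left out (9 to 9), but 8 with DESeq2 and 8 with the single D4 library. Over the single genes, 763 values outside the leave-one-out fits kept their status as called or not called, 28 lost a call, 41 gained one and 1 reversed. A value called in neither fit counted as kept whatever its direction, so these counts do not show that directions held. The reversed value was Oca2 at D4 against D0, at log2 -2.77 with replicate 1 as the only library of D4. With 1 library left out, 385 values kept their status in the same sense, 31 lost a call and 4 gained one.

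At D4 against D0, the count called higher (3 in the fit reported) was 0 with limma and 1 CPM added, 0 with the 6 libraries of the pair, 2 with limma and 0.1 CPM added, 2 with the set as a term, 2 with summed transcripts 1 with the single D4 library and 4 with DESeq2, and that called lower (1) was 2 without factors, 2 without the filter, 2 with limma and 0.1 CPM added, 2 with DESeq2, 2 with the 6 libraries, 2 with the single D4 library and 3 with the set as a term. At D10 against D7, 2 were called lower with the 6 libraries of the pair, where 6 were called higher against 5, and 1 within set 1, against 0. At D12 against D10 the count called lower (3) was 5 with the set as a term, 6 with limma and 1 CPM added, 1 with limma and 0.1 CPM added, 2 without factors, 5 with DESeq2, 9 with the 6 libraries and 0 within set 2. At D18 against D12 it was 5 within set 1, and 7 within set 2, against 10. At D32 against D18 (1) it was 3 with summed transcripts, 3 with the set as a term, 2 with limma and 1 CPM added and 2 with the 6 libraries. Over all genes, the counts called were 4583 with the 6 libraries at D7 against D4 (8515 in the fit reported), 4266 within set 1 at D10 against D7 (7522), 436 without factors, 485 without the filter, 1564 with DESeq2, 40 within set 1 and 13 within set 2 at D12 against D10 (878), and 1496 within set 1 and 2828 within set 2 at D18 against D12 (4638). Where a fit leaves 1 library to a day (within set 1 from D10 on, or the single D4 library), it was assumed to vary like the other days. Fits with fewer libraries can have less power, yet at D12 against D10 the 6 libraries alone gave 9 genes called lower against 3. The causes of these differences were not tested.

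With each library left out in turn, the genes called ranged from 1 to 3 higher and 1 to 3 lower at D4 against D0, 4 to 5 higher at D10 against D7, 0 to 2 lower at D12 against D10, 8 to 10 lower at D18 against D12, 1 to 3 lower at D32 against D18 and 7 to 8 lower at D32 against D7. Over all genes tested, the D12 against D10 count ranged from 133 to 492, against 878.

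With the replicate block, 6 genes were called lower at D12 against D10 and all 10 at D18 against D12, where same-numbered libraries deviated alike. In the other comparisons, the block gave 2 lower at D4 against D0 and 4 at D32 against D18, and no other call of these genes changed. Counts below about 20 in a day, as for Dct, Tspan10 and Slc45a2 at D0 and D4, limit what can be said of those levels.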
